A study of Mus musculus with 19 samples.

Results

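Liver tumours of 1 mouse model were compared by how strongly they expressed 4 genes of dividing cells. The 4 genes were Mki67, which encodes the proliferation antigen Ki-67, Top2a, the topoisomerase that untangles replicated chromosomes, Ccnb1, the mitotic cyclin B1, and Cdk1, the kinase that cyclin B1 activates. Each of the 10 tumours numbered 04 to 13 was given a score, the mean of log2(CPM + 1) over the 4 genes, where CPM is a gene's counts per 1000000 counts over all genes. The tumours were ranked by this score and chosen by it into 2 sets, the 5 higher-scoring tumours (08, 13, 09, 12 and 06) and the 5 lower-scoring tumours (10, 11, 05, 04 and 07). These are 10 of the 19 samples of the series and 10 of its 13 tumours. The sets are not groups of the study, and abundance of 4 mRNAs is not a rate of division, so the sets are named here by their scores and not as fast or slow.

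The tumours arose in male mice heterozygous for the Ctnnb1tm1Mmt allele and homozygous for Gt(ROSA)26Sortm1(MYC)Djmy, a human MYC transgene at the Rosa26 locus. The Ctnnb1 allele yields a stabilised β-catenin after Cre recombination. Cre was delivered with AAV8.TBG.PI.Cre.rBG, in which a thyroxine-binding globulin promoter limits expression to hepatocytes, at 640000000 genome copies per mouse. Both sets share all of these alleles and this dose. Per the study's methods the mice were adults of mixed background and tumours grew from clones of recombined hepatocytes, and the labels give no age or time after injection. Bulk RNA of a tumour also holds RNA of vessels, stroma and blood.

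The tumours carry 5 tags in their library names, whose meaning the labels leave unstated. The first tag was carried by tumour 04, the second by 05 and 06, the third by 07 and 08, the fourth by 09 and 10, and the fifth by 11, 12 and 13. Thus 4 of the 5 tags hold tumours of both sets. If a tag is a mouse, tumours that share it are not independent, and p-values measure the spread between these 10 libraries only.

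A dividing cell copies its DNA in S phase and separates the copies in mitosis, and each step has its own set of genes. Genes of S phase are switched on by E2F factors. Genes of G2 and mitosis are switched on later by the B-Myb-MuvB complex and FOXM1, and many of them carry the CHR element, which the DREAM complex uses to keep them silent in resting cells. Adult hepatocytes rarely divide, and MYC and β-catenin both drive growth in liver tumours.

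The promoters of 3 of the 4 genes hold CHR letters and all 4 hold CCAAT boxes. Only the CCAAT box is thus shared by all 4. For each gene 80 bases from upstream of the start site are printed here, beginning between 166 and 80 bases before it. The stretches were chosen for the CHR and CCAAT letters they hold. How densely these letters lie in them was therefore fixed by the choice. Sequences are from RefSeq on GRCm38.p6, read 5′ to 3′ on the minus strand, on which all 4 genes lie. Capitals mark matches on either strand to the CHR letters TTTGAA or TTCGAA and to the CCAAT box, the site of the NF-Y factor.
Ccnb1, chr13:100786506-100786585: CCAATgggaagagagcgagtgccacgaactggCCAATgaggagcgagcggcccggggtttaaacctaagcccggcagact
Cdk1, chr10:69352913-69352992: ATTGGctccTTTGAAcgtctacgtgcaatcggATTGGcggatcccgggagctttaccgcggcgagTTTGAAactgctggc
Top2a, chr11:99024259-99024338: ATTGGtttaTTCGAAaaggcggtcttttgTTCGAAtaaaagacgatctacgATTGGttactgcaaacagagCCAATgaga
Mki67, chr7:135716466-135716545: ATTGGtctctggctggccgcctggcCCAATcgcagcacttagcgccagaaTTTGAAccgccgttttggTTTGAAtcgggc

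Cdk1, Top2a and Mki67 each held 2 CHR matches in the stretch shown, and Ccnb1 held none there and 2 CCAAT boxes. Over windows of 300 bases, from 250 before to 50 after a start site, a CHR match lay in 30 of 38 windows of the G2 and mitosis list (78.9%) against 6316 of all 32851 windows (19.2%). A CCAAT box lay in 73.7% of the windows of that list, in 58.8% of those of the DNA replication list, in 68.4% of those of the DNA repair list and in 37.4% of all windows. An E2F-type match (TTTGGCGC, TTTCGCGC, TTTCCCGC or TTTGCCGC, either strand) lay in 12 of 34 windows of the DNA replication list (35.3%), in 0 of 38 of the G2 and mitosis list and in 2.26% of all windows. These are matches of letters in fixed windows and show no binding.

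**Figure D1:**
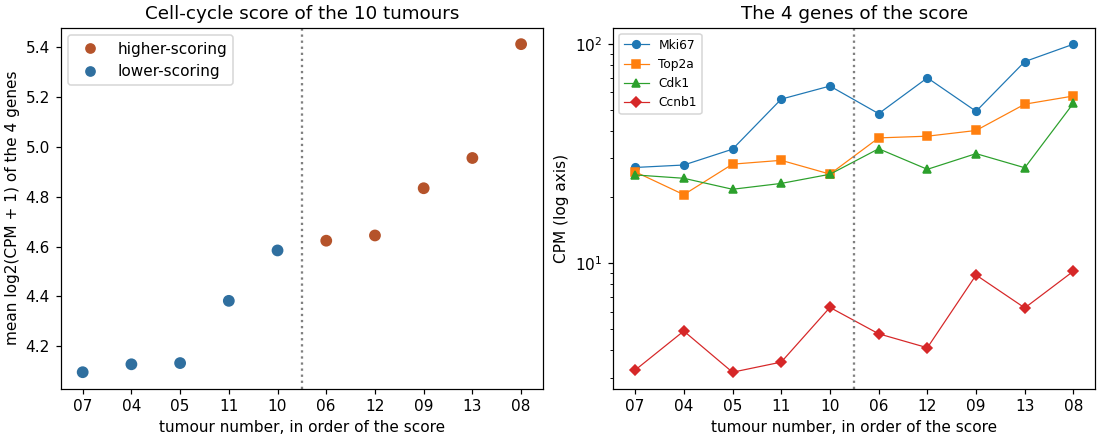
The left plot gives the cell-cycle score, mean log2(CPM + 1) of 4 genes, for the 10 tumours in order, and the right plot gives the CPM of each of the 4 genes on a log axis. The dotted line is the division into 5 and 5, which falls in a gap of 0.04 between tumours 10 and 06 while the whole range of the score is 1.32.

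The score ran from 4.10 in tumour 07 to 5.41 in tumour 08. Its mean was 4.89 ± 0.32 in the higher-scoring and 4.26 ± 0.21 in the lower-scoring tumours (SD, n = 5 each), a difference that the ranking itself made. The division was not marked by a break, since tumour 06, the last inside the higher set, scored 4.62 and tumour 10, the first outside it, scored 4.58. The plot of the score by tumour shows wider steps elsewhere, the widest of 0.46 between tumours 13 and 08. Tumours 06 and 10 exchanged sides when Top2a or Cdk1 was left out of the score, and no tumour did when Mki67 or Ccnb1 was left out.

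Mki67 stood at 99.6, 82.9, 49.2, 69.9 and 48.0 CPM in the higher-scoring tumours in the order just given (08, 13, 09, 12, 06). In the lower-scoring tumours it had 64.2 CPM in tumour 10, 55.9 in tumour 11, 33.1 in tumour 05 and less in tumours 04 and 07, with 27.3 CPM the lowest. Tumours 10 and 11 were above tumours 09 and 06, so the sets overlapped for this gene. Ccnb1, counted with 38 or more reads in each tumour, overlapped as well. Top2a did not, with 57.8, 53.1, 40.2, 37.9 and 37.2 CPM against 25.5, 29.4, 28.3, 20.5 and 26.1 CPM in the same order of tumours. Cdk1 did not overlap either, but tumour 08 alone reached 53.6 CPM while the next highest, tumour 06, had 33.2 CPM. All 4 genes chose the sets, so their differences are a description.

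The other genes were then compared between the sets. Counts over genes ranged from 11687034 in tumour 07 to 36964427 in tumour 13, and 3 counts corresponded to between 0.0812 and 0.257 CPM, a floor that covers counting error only. The 2 deepest libraries, tumours 12 and 13, were both in the higher-scoring set. Mean gene counts were 23971300 in that set and 15760800 in the other, a difference that did not pass an exact two-sided permutation test over all divisions into 5 and 5 (p = 0.11, adjusted over 5 library properties p = 0.28, smallest possible p = 0.0079). Genes with at least 1 count numbered 20038 ± 608 and 19346 ± 312 (SD, n = 5 each; p = 0.056, adjusted p = 0.28, exact permutation test). The part of depth in the results below was not tested beyond a fit that carries library size as a term.

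No gene passed an adjusted p of 0.05. With edgeR's quasi-likelihood test on 12458 genes, 0 were called higher (0.0%) and 0 lower (0.0%) in the higher-scoring tumours, and the smallest adjusted p was 0.41. At an unadjusted p under 0.05 there were 502 genes on the higher side (4.03%) and 543 on the lower side (4.36%). DESeq2's Wald test on the same libraries called 25 higher and 25 lower. The values that follow are therefore descriptions of which genes varied together with the 4 chosen ones, and none is a call of the edgeR test. Levels of all 5 tumours on one side lay above all 5 on the other for 143 genes on the higher side (1.15%) and 55 on the lower side (0.441%). Of all genes, 48.2% had a fitted difference above 0 and 51.8% below 0, with a median log2 difference of −0.01. In each of the 4 tags that hold both sets the difference was above 0 for 993 genes (7.97%) and below 0 for 1034 (8.3%).

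**Figure D2:**
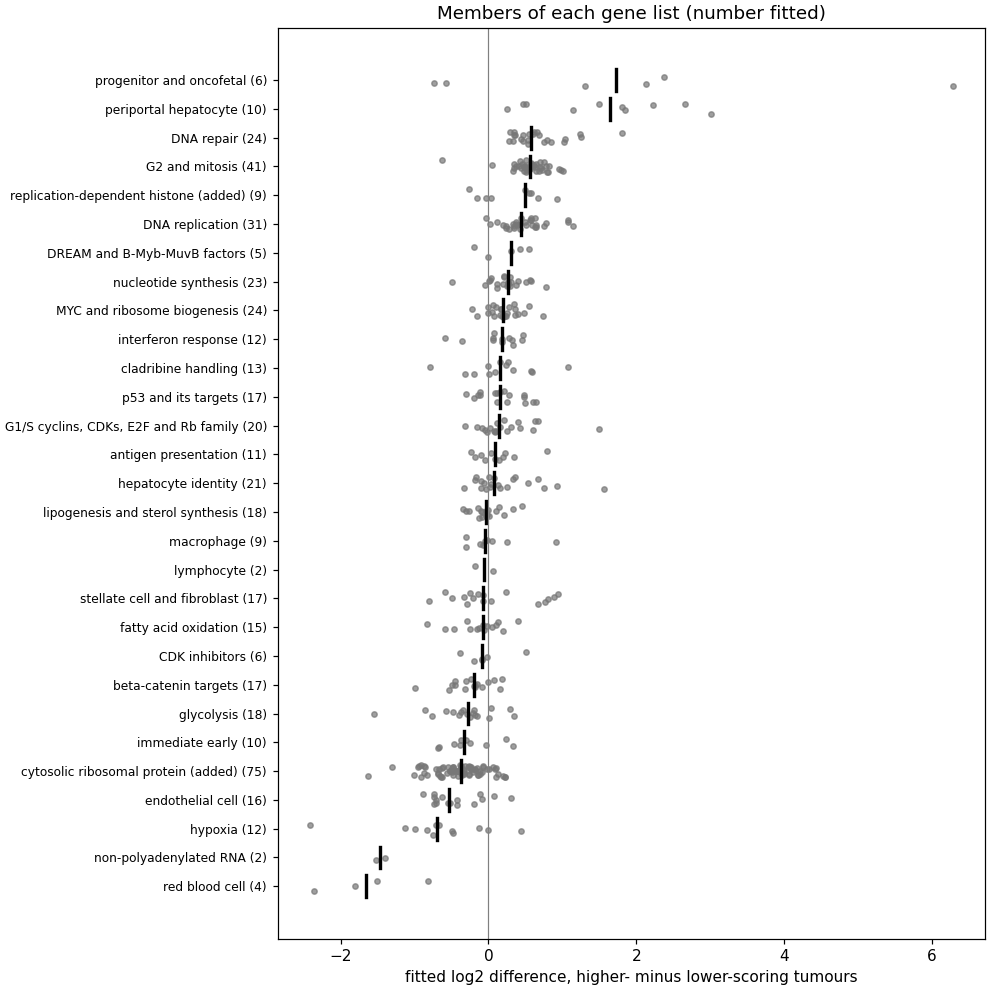
Each grey point is 1 gene's fitted log2 difference, higher- minus lower-scoring tumours, and each black bar is the median of its list, with the number of genes fitted in brackets. The DNA repair, G2 and mitosis and DNA replication lists lie almost wholly to the right of 0, and the cytosolic ribosomal protein, endothelial, hypoxia and red blood cell lists lie mostly to the left.

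Genes of G2 and mitosis lay on the higher side as a set. The score is itself made of such genes, so the ranking favoured this direction and the counts below are a description. Of the 41 members fitted, none of them a gene of the score, 40 had a difference above 0, against 48.2% of all genes, and the median was 0.56 on the log2 scale. The exception was Cdc25b, a phosphatase that activates CDKs, at −0.63. An unadjusted p under 0.05 was reached by 24 members on the higher side and 0 on the lower side (4.03% and 4.36% of all genes). In 7 members the sets did not overlap, against 1.15% of all genes, and in 20 the difference was above 0 within all 4 tags, against 7.97% of all genes. The median was 0.43 without tumour 08 and between 0.54 and 0.65 without any other tumour.

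Nek2, a kinase that separates the centrosomes before mitosis, lies at positions 191553548 to 191565162 of chromosome 1 (GRCm39, plus strand). It stood at 56.6, 47.7, 36.6, 36.1 and 40.9 CPM in tumours 08, 13, 09, 12 and 06, against 30.8, 26.2, 25.0, 22.3 and 16.8 CPM in tumours 10, 11, 05, 04 and 07. The lowest of the higher-scoring tumours was above the highest of the others, as the rule that named Nek2, given below, required. The fitted log2 difference of Nek2 was 0.80 ± 0.18 (SE). Its promoter, like that of Ccnb1, held a CCAAT box and no CHR match in the 80 bases printed here for comparison (GRCm38.p6, chr1:191821393-191821472, plus strand).
Nek2: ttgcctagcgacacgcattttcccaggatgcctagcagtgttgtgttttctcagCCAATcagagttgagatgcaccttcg

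Kntc1, Esco2 and Ndc1 were not on the list. Like Nek2, they were named by a rule that took genes without overlap between the sets and with the smallest p-values. The lack of overlap of every gene named by this rule was therefore fixed by the choice. Kntc1, a part of the complex that holds the spindle checkpoint at kinetochores, had 10.5, 8.74, 6.78, 6.24 and 4.76 CPM in the higher-scoring and 4.25, 3.48, 3.56, 2.52 and 2.99 CPM in the lower-scoring tumours. Its log2 difference was 1.08 ± 0.24 (SE). Esco2, the acetyltransferase that fixes cohesion between new sister chromatids, had 9.63 ± 0.941 CPM against 5.65 ± 1.01 CPM (SD, n = 5 each). When tumours 06 and 10 changed sides its log2 difference went from 0.71 to 0.45. Tpx2 and Bub1, a spindle assembly factor and a checkpoint kinase, were named after their values were seen. Tpx2 did not overlap, at 28.3 ± 5.29 against 17.5 ± 2.91 CPM, and Bub1 did, at 6.31 ± 2.10 against 3.05 ± 1.01 CPM (SD, n = 5 each). Ndc1, a membrane protein of the nuclear pore, was higher in each of the 5 higher-scoring tumours (20.4 to 32.0 CPM) than in any of the others (11.1 to 20.1 CPM).

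Genes that copy DNA lay on the higher side too. Of 35 genes on the DNA replication list 31 passed the filter on low counts, 30 of these were on the higher side and the median log2 difference was 0.43. Unadjusted p was under 0.05 for 14 of them, all on the higher side (4.03% of all genes), and 15 were higher within all 4 tags (7.97%), but in 0 did the sets separate fully (1.15%). Mcm6, a subunit of the replicative helicase named here after its values were seen, is an example. It stood at 39.6, 60.1, 39.8, 47.2 and 23.3 CPM in tumours 08, 13, 09, 12 and 06, while the others lay between 12.7 CPM in tumour 04 and 26.1 CPM in tumour 11. Tumour 06 had less Mcm6 than tumour 11, and the other 4 higher-scoring tumours were above all lower-scoring ones. Mcm10, a factor that activates this helicase, had 51.7 ± 29.1 against 22.7 ± 11.6 CPM (SD, n = 5 each), with tumour 12 at 102 CPM. Mcm7 of the same helicase differed little, by 0.24 ± 0.14 (SE) on the log2 scale.

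All 24 genes of the DNA repair list lay on the higher side, with a median log2 difference of 0.57. Unadjusted p was under 0.05 for 12 of them, all on the higher side (4.03% of all genes), and 13 were higher within all 4 tags (7.97%). Clspn, the claspin adaptor of the replication checkpoint, and Exo1, an exonuclease of mismatch and break repair, were named after their values were seen. Clspn had 4.45, 4.57, 4.73, 3.95 and 2.85 CPM in the higher-scoring and 1.84, 1.74, 1.56, 1.05 and 2.14 CPM in the lower-scoring tumours, with as few as 15 reads in a tumour. Exo1 had 4.11 ± 0.930 against 1.65 ± 0.567 CPM (SD, n = 5 each). Neither overlapped between the sets, which held for 3 of the 24 genes of the list (1.15% of all genes). Topbp1 and Atr, an activator and the kinase of the same checkpoint, differed by 0.46 ± 0.16 and 0.47 ± 0.15 (SE) on the log2 scale, with overlap.

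**Figure D3:**
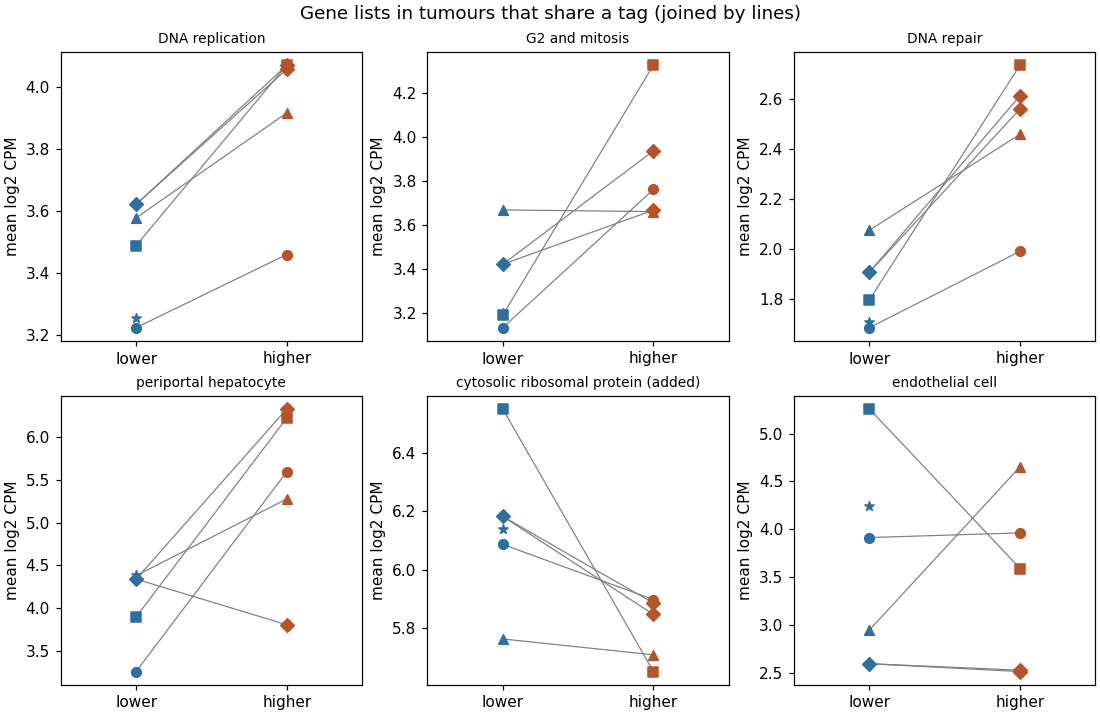
Mean log2 CPM of the fitted members of 6 gene lists is plotted for each tumour, lower-scoring on the left and higher-scoring on the right, with 1 symbol per tag and grey lines joining tumours of the same tag. All lines rise for DNA replication and DNA repair and all fall for the ribosomal protein genes, while 1 line of the G2 and mitosis list is level, 1 periportal line falls and the endothelial lines cross.

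Within tags the replication and repair lists were higher in the higher-scoring tumour of every pair, and the mitosis list was not. For the G2 and mitosis list, tumour 08 stood at 4.33 and tumour 07 of the same tag at 3.19 on the mean log2 CPM scale. Tumours 09 and 10 of the fourth tag were level, at 3.66 and 3.67. The DNA replication list separated that same pair, at 3.92 in tumour 09 and 3.58 in tumour 10. With the tag as a term in the fit the median log2 differences were 0.54 for G2 and mitosis, 0.39 for replication and 0.48 for repair, and with library size as a term they were 0.45, 0.37 and 0.40. Both fits were added after the data had been seen.

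On the list of G1/S cyclins, CDKs and E2F and Rb family members, 15 of 20 were on the higher side with a median of 0.14. Ccna2, cyclin A2 of S phase and G2, did not overlap between the sets, at 22.9 ± 5.07 against 13.8 ± 3.12 CPM (SD, n = 5 each). Ccne1, cyclin E1, reached 12.1 and 13.0 CPM in tumours 09 and 12 but 2.92 and 1.80 CPM in tumours 08 and 06, so the higher-scoring set spread over most of its range. Both cyclins were named after their values were seen. Ccnd1, cyclin D1, differed by 0.12 ± 0.39, Cdk4 by −0.02 ± 0.16 and E2f1 by 0.09 ± 0.26 (log2, SE), with E2f1 lowest of all in the higher-scoring tumour 06 at 4.01 CPM. Foxm1, the activator of mitotic genes, was highest in tumours 08 and 13 at 35.5 and 26.4 CPM, yet tumour 10 had 22.9 CPM and the difference was 0.43 ± 0.30 (log2, SE). Mybl2, which encodes B-Myb, was at 0.420 to 1.34 CPM in all tumours and was not fitted. Of the 5 DREAM and B-Myb-MuvB genes fitted 3 were above 0.

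Inhibitors of the cycle did not mirror the score. Of 6 CDK inhibitors fitted, 5 were below 0 with a median of −0.09, and that median changed sign under 8 of 26 alternatives. Cdkn1a, which encodes p21, ranged from 60.5 to 333 CPM in the higher-scoring and from 83.7 to 471 CPM in the lower-scoring tumours. Its difference was −0.20 ± 0.54 (log2, SE). Cdkn2a, whose products restrain CDK4 and MDM2, was at or below 2.48 CPM in all tumours and was not fitted. Trp53, which encodes p53, had 65.6 ± 10.7 and 67.8 ± 11.2 CPM (SD, n = 5 each). On the p53 target list 12 of 17 genes were above 0, with a median of 0.15. Of the 17, 2 had an unadjusted p under 0.05 on the higher side (4.03% of all genes) and 5 were higher within all 4 tags (7.97%).

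Supply of DNA precursors followed the score in part. On the nucleotide synthesis list 21 of 23 genes were above 0 with a median of 0.27, and 5 on the higher and 1 on the lower side had an unadjusted p under 0.05 (4.03% and 4.36% of all genes). Rrm2, the S-phase subunit of ribonucleotide reductase, was counted on the cladribine list and not on this one. It stood at 22.3, 19.9, 36.9, 17.9 and 13.4 CPM in tumours 08, 13, 09, 12 and 06, against 9.18, 6.46, 14.4, 10.2 and 9.33 CPM in tumours 10, 11, 05, 04 and 07. The only overlap was tumour 05, which exceeded tumour 06, and the log2 difference was 1.07 ± 0.26 (SE). Rrm2b, the p53-induced subunit of the same enzyme, is also not on the nucleotide synthesis list. It was named after its values were seen and lay the other way, at 2.82 ± 0.716 against 4.67 ± 2.36 CPM (SD, n = 5 each). Shmt2, the mitochondrial enzyme that feeds one-carbon units into purines, had a log2 difference of −0.49 ± 0.21 (SE), below 0 in all 4 tags. Shmt2 lies on chromosome 10, where 75.4% of 516 genes with a mean of at least 5 CPM were below 0.

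Dck encodes deoxycytidine kinase, which phosphorylates deoxynucleosides and the drug cladribine, a drug that the study tested in other experiments. It had 8.72, 7.55, 11.5, 8.16 and 5.34 CPM in the higher-scoring tumours and 5.27, 5.40, 5.24, 4.90 and 5.22 CPM in the others. The lower-scoring tumours had an SD of 0.184 CPM, and tumour 06 lay at their level. On the cladribine list 9 of 13 genes fitted were above 0. An unadjusted p under 0.05 was reached by 3 on the higher and 1 on the lower side (4.03% and 4.36% of all genes). The largest difference on the list was that of Rrm2, given above. The nucleoside and drug transporters Slc29a1 and Abcg2 differed by 0.01 ± 0.23 and 0.09 ± 0.29 (log2, SE). No tumour here was treated.

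Myc itself did not follow the score. Mouse Myc had 87.1 ± 5.53 CPM in the higher-scoring and 80.5 ± 31.0 CPM in the lower-scoring tumours (SD, n = 5 each), with its highest level, 133 CPM, in the lower-scoring tumour 05. Whether reads of the human transgene are counted there was not tested. MYC and ribosome biogenesis genes had a median of 0.19 with 20 of 24 above 0, and the median turned to −0.08 when Top2a or Cdk1 was left out of the score and tumours 06 and 10 changed sides. Ncl, the nucleolar protein nucleolin, had 688 ± 128 and 581 ± 83.5 CPM (SD, n = 5 each).

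Genes for the proteins of the cytosolic ribosome lay on the other side. This list was added after values had been seen. Of 75 genes fitted 66 were below 0, with a median log2 difference of −0.37, and 35 had an unadjusted p under 0.05 on the lower side against 0 on the higher side (4.36% and 4.03% of all genes). In 7 the sets did not overlap (0.441% of all genes), and 29 were lower within all 4 tags (8.3%). Rps19 of the small subunit stood at 47.1, 49.0, 40.6, 36.4 and 44.3 CPM in tumours 08, 13, 09, 12 and 06, against 70.7, 85.9, 81.2 and 79.1 CPM in tumours 11, 05, 04 and 07. Tumour 10 was the lowest of its set and still above every higher-scoring tumour, as the rule that named Rps19 required. The log2 difference of Rps19 was −0.83 ± 0.16 (SE). Many of these genes have near-identical copies elsewhere in the genome, and the table's summary line for reads without a unique alignment held between 45.4% and 57.9% of a tumour's total over genes and summary lines, so these levels are uncertain. The median stayed between −0.44 and −0.28 without any 1 tumour.

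**Figure D4:**
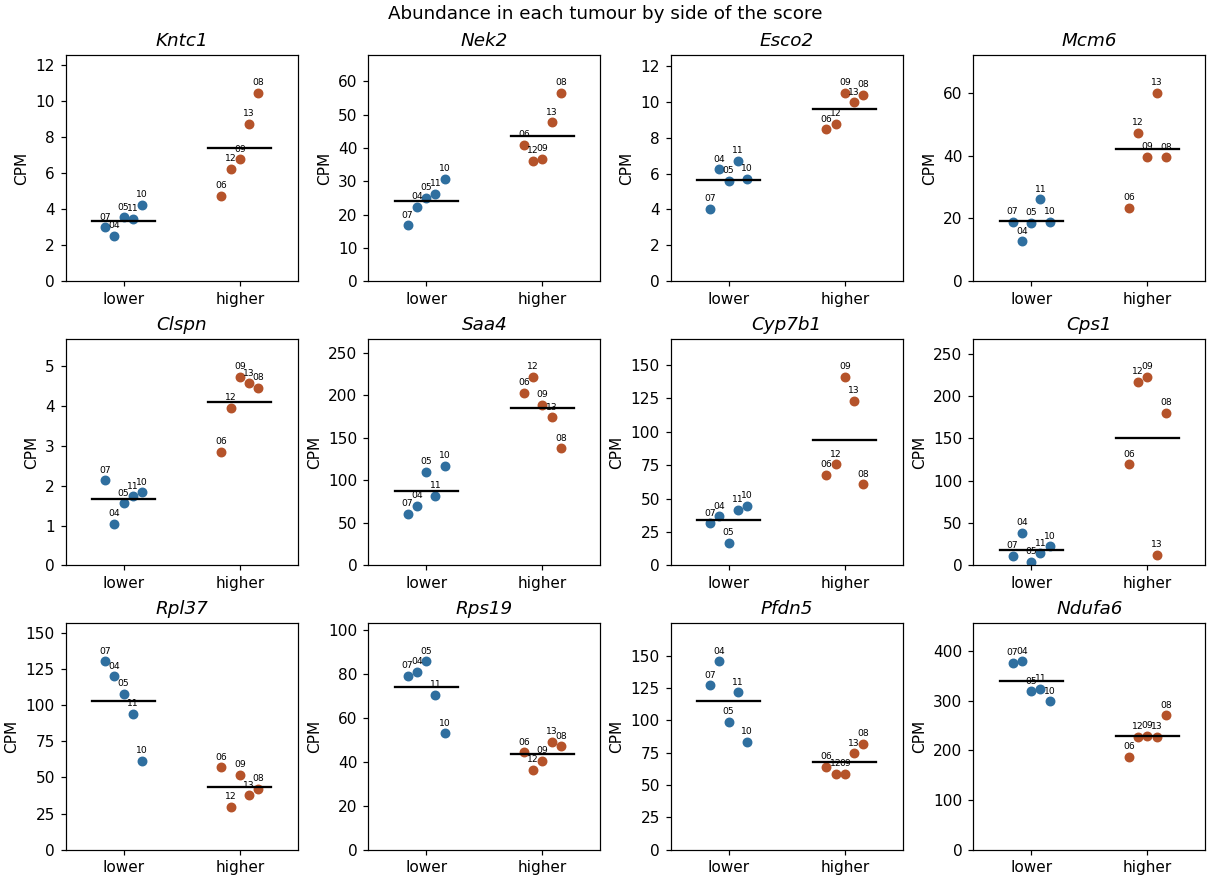
CPM of 12 genes is plotted for each tumour, numbered, by set, with a bar at the mean of each set of 5. In 10 of the panels the sets do not overlap, and the exceptions are Mcm6, in which tumour 06 lies below tumour 11, and Cps1, in which tumour 13 lies among the lower-scoring tumours. Those 10 genes were named by a rule that requires no overlap or, for Clspn, after the values were seen. Their lack of overlap was therefore fixed by the choice.

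The other genes named on the higher side by that rule were Saa4, Cyp7b1, Slc10a1, F11, Got1 and Gclc. None passed the adjusted threshold of edgeR, and all 6 passed that of DESeq2. Saa4, the constitutive serum amyloid A of the liver (chromosome 7, positions 46377406 to 46382035), stood at 138, 174, 189, 222 and 203 CPM in tumours 08, 13, 09, 12 and 06, against 117, 81.7, 109.9, 69.8 and 60.4 CPM in tumours 10, 11, 05, 04 and 07. It had the smallest unadjusted p of the genes named on this side, and its log2 difference was 1.02 ± 0.20 (SE). The tumour with the highest score, 08, was the lowest of its set. Cyp7b1, the hydroxylase of the alternative bile acid pathway, ranged from 60.6 to 141 CPM against 16.9 to 44.5 CPM. Slc10a1, which takes bile acids up from blood, had 93.1 ± 40.4 against 30.5 ± 14.5 CPM, and F11, coagulation factor XI, had 13.8 ± 3.45 against 5.99 ± 2.14 CPM (SD, n = 5 each). Got1, an aminotransferase, and Gclc, the first enzyme of glutathione synthesis, did not overlap either, at 47.2 to 209 against 31.7 to 46.7 CPM and at 241 to 336 against 128 to 218 CPM. When tumours 06 and 10 changed sides the log2 difference of Saa4 was 0.58 and that of F11, 1.15 before, was 0.44.

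The hepatocyte identity list as a whole was mixed. It had 14 of 21 genes above 0 and a median of 0.08, which changed sign under 5 of 26 alternatives, and in 3 of its genes the sets did not overlap (1.15% of all genes). Alb, albumin, was 1 of these 3, at 16337 to 24399 CPM against 12729 to 16171 CPM. Hnf4a, the master regulator of the hepatocyte programme, had 765 ± 93.5 and 727 ± 111 CPM (SD, n = 5 each). Summed levels of the 21 genes were between 43645 and 77256 CPM, so all 10 libraries held abundant hepatocyte mRNA.

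Periportal genes, those of hepatocytes near the inflowing blood, lay on the higher side as a set. All 10 members fitted were above 0, the median log2 difference was 1.65 and 6 had an unadjusted p under 0.05 on the higher side (4.03% of all genes). In 0 did the sets separate fully (1.15%). Cps1, the entry enzyme of the urea cycle, was named after its values were seen and had 179.9, 12.7, 223, 217 and 119.6 CPM in tumours 08, 13, 09, 12 and 06 against 22.4, 14.2, 4.43, 38.2 and 11.3 CPM in tumours 10, 11, 05, 04 and 07. Tumour 13, second by score, had as little Cps1 as the lower-scoring tumours. Pck1, the gluconeogenic enzyme, was lowest of its set in the same tumour, at 110.2 CPM, and the lower-scoring tumour 11 had 293 CPM. The 3 members that were not fitted included Cyp2f2 and Sds, which were highest in tumours 08 and 12. The median of the list was 0.89 when tumours 06 and 10 changed sides and between 1.26 and 1.90 without any 1 tumour.

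Targets of β-catenin lay mostly on the lower side, with 14 of 17 below 0 and a median of −0.19. Nkd1 and Axin2, both feedback inhibitors of the Wnt pathway, were the 2 members with an unadjusted p under 0.05 on the lower side (4.36% of all genes), and 9 of the 17 were lower in all 4 tags (8.3%). Axin2 stood at 145, 206, 103, 131 and 108 CPM in tumours 08, 13, 09, 12 and 06, against 169.7, 175, 201, 145 and 216 CPM in tumours 10, 11, 05, 04 and 07. Tumour 13 was the exception in its set. Glul, glutamine synthetase, had 10635 ± 3194 and 10404 ± 2652 CPM (SD, n = 5 each). Ctnnb1 differed by −0.24 ± 0.22 (log2, SE). The median of the list was −0.02 when the score was used as a number, and 0.01 with the top 3 against the bottom 3 tumours.

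H19, an imprinted noncoding RNA of fetal liver, stood at 131, 3013, 7926, 89.6 and 75.7 CPM in tumours 08, 13, 09, 12 and 06, against 5.17, 98.4, 1.62, 14.8 and 9.24 CPM in tumours 10, 11, 05, 04 and 07. Tumours 09 and 13 carried most of it, and only tumour 11 of the lower set reached the level of the others. Igf2, its neighbour and a fetal growth factor, was at 1693 CPM in tumour 09 and at 5.84 CPM or less in every other tumour, and was not fitted. Afp, α-fetoprotein, was highest in tumour 13 at 131 CPM. Of the 6 progenitor and oncofetal genes fitted 4 were above 0.

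Markers of other cells were compared in the same way, and fewer cells of a type cannot be told apart from less RNA per cell in bulk samples. Of 16 endothelial genes fitted 14 were below 0, with a median of −0.53 and a summed level of 129.2 to 607 CPM in the higher-scoring and 165 to 747 CPM in the lower-scoring tumours. All 4 red blood cell genes fitted were below 0, with a median of −1.66 and summed levels of 107 to 1976 against 114 to 5729 CPM. Without tumour 07 these medians were 0.06 and 0.39, and with library size as a term in the fit they were 0.56 and 0.36. Without tumour 09 they were −0.92 and −3.39. Fibroblast genes summed to 490.1 to 4094 against 639 to 3088 CPM, and macrophage genes to 231 to 589.6 against 192 to 496 CPM. Of 20 lymphocyte genes 2 were fitted, and 10 had no count in at least 1 tumour. With the red blood cell level as a term in the fit, 0 genes were called on either side, and the medians were 0.52 for replication, 0.56 for mitosis, 0.56 for repair and −0.10 for endothelial genes. Without tumour 07 the first 3 of these were 0.54, 0.55 and 0.53. The part of the other cell types was not tested.

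Hypoxia genes had 11 of 12 members below 0 and a median of −0.69, and glycolysis genes 14 of 18 and −0.27. Tumour 05 decided both, and in it Vegfa, the vessel growth factor that low oxygen induces, reached 514 CPM against 164 CPM or less elsewhere. Without tumour 05 the medians were 0.11 and 0.28. Immediate early genes, the fast responders to stimulation, had 8 of 10 below 0 and a median of −0.33, with Jun at 982 CPM in tumour 05 and 682 CPM in tumour 06. That median was 0.74 without tumour 05 and −1.16 without tumour 06. Rpph1 and Rmrp, noncoding RNAs without a poly(A) tail that a poly(A) library should lack, were highest in tumours 05, 06 and 07 and had differences of −1.52 ± 1.21 and −1.40 ± 1.16 (log2, SE). The list of such RNAs had 5 matched members, of which these 2 were fitted. With the mean level of the 5 as a term in the fit, medians were 0.38 for replication, 0.50 for mitosis and 0.43 for repair.

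**Figure D5:**
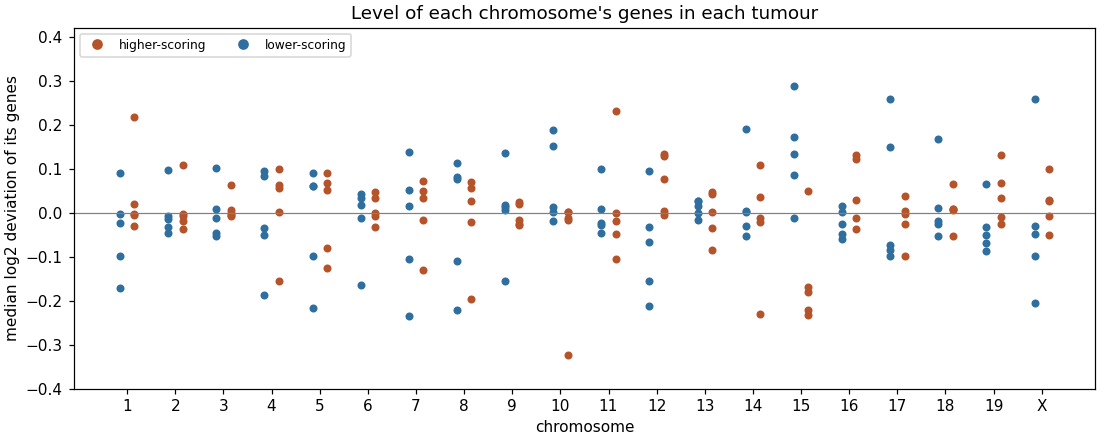
For each chromosome, each point is 1 tumour's median log2 deviation of that chromosome's genes from the gene's median over the 10 tumours. On chromosome 15 the points of 4 higher-scoring tumours lie between −0.23 and −0.17, and those of 4 lower-scoring tumours lie between 0.09 and 0.29.

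Genes lower in the higher-scoring tumours were gathered on chromosome 15. Of the 10 genes named on this side by the fixed rule, 7 lie there, and 0 of the 10 named on the higher side do. They are Rpl37 of the large ribosomal subunit (positions 5145959 to 5153877), Nsmce2, a SUMO ligase of DNA repair (59246073 to 59473538), Eef1d, a translation elongation factor (75766054 to 75782564), Ankrd54 (78937294 to 78947141), Ndufa6 of respiratory complex I (82234340 to 82238523), Dennd6b (89066366 to 89080838) and Pfdn5, a prefoldin subunit (102234551 to 102241468). The other 3 were Rps19 on chromosome 7, C2cd2l on chromosome 9 and Tnks1bp1 on chromosome 2.

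Rpl37 stood at 41.9, 37.7, 51.8, 29.8 and 57.0 CPM in tumours 08, 13, 09, 12 and 06, against 61.7, 93.9, 108, 119.9 and 130.3 CPM in tumours 10, 11, 05, 04 and 07, a log2 difference of −1.30 ± 0.24 (SE). Pfdn5 had 67.7 ± 10.3 against 115 ± 24.5 CPM and Ndufa6 had 228 ± 29.5 against 339.6 ± 36.3 CPM (SD, n = 5 each). For Pfdn5 tumours 08 and 10 were almost level, at 82.0 and 83.2 CPM, and the same pair came closest for Eef1d, at 178 and 179 CPM.

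Other genes of the chromosome lay on the same side. This comparison was added after the named genes had been seen, on 10331 genes of chromosomes 1 to 19 and X with a mean of at least 5 CPM. Of the 431 genes on chromosome 15, 382 had a difference below 0 (88.6%), and the median was −0.33 against −0.01 for all 10331. An unadjusted p under 0.05 on the lower side was reached by 127 of the 431 (29.5%, against 4.52% of the 10331), and on the higher side by 1. The sets did not overlap for 15 of them, of 48 such genes on the lower side over all chromosomes. The median deviation of chromosome 15 was −0.18, −0.23, −0.22 and −0.17 in tumours 06, 09, 12 and 13, and 0.29, 0.13, 0.09 and 0.17 in tumours 04, 05, 10 and 11. Tumour 08 at 0.05 and tumour 07 at −0.01 did not keep to their sets. Without any 1 tumour the median stayed between −0.38 and −0.29, and over all alternatives it stayed between −0.38 and −0.14. DESeq2 called 10 genes of this chromosome among its 25 on the lower side. Genes of a chromosome share that position and are not independent of each other, and no DNA was measured in these files. Mouse Myc lies on chromosome 15 as well and differed by 0.06 ± 0.21 (log2, SE).

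Chromosomes 10 and 12 followed at a distance. On chromosome 10, 75.4% of 516 genes were below 0 with a median of −0.18, and tumour 13 had the lowest deviation of any tumour on any chromosome plotted, −0.32. On chromosome 12, 76.2% of 349 genes were above 0 with a median of 0.15. The remaining 17 chromosomes had medians between −0.07 and 0.09.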

How the data were processed

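RNA of mouse liver tumours was sequenced from poly(A) libraries. The authors deposited 1 table of raw read counts per gene, with 39179 gene identifiers and 5 summary lines. The submitters' processing notes name TopHat2, HTSeq and GRCm38, while the study's methods name other programs, and strand use in counting was not given in the sources used here. Columns were matched to tumours 04 to 13 where the library number in the column name occurs in 1 sample title only, and 9 other columns were not used. Counts were scaled with TMM factors and tested in edgeR 4.0.16 (glmQLFit and glmQLFTest, R 4.3.3) after filterByExpr with the 10 tumours as 1 group, with Benjamini-Hochberg adjustment over all genes, and 5 tumours were set against 5. The 4 genes of the score stayed in the fit and out of every count. DESeq2 1.42.0 was an alternative. The code was tested on simulated data. Differences within tags use log2 CPM with a prior count of 2. Positions and symbols are from GENCODE M39 on GRCm39, which names 34199 identifiers (87.3%).

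Per direction, the 10 protein-coding genes with a mean of at least 5 CPM, no overlap and the smallest unadjusted p were named, since none passed the adjusted threshold in edgeR, with the 2 genes of highest mean CPM of each list and a fixed set of regulators. The ribosomal protein and histone lists, the chromosome summary and the fits with tag and library size were added after the data had been seen. The members, lists and tests were chosen with earlier results of these data known. Of the listed genes, Lin54, Rn7sk and Terc had no match.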

Additional observations from a re-analysis of the deposited data

Results flagged for a closer look

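The 10 tumours were screened for a single tumour that stood apart, as the gap to its nearest neighbour over the whole range, in log2 CPM of each named gene, in the mean of each list and in each library property. Chance passes about 1 in 20 such screens. Of 121 measures screened 8 were flagged, a number near that rate, so no single flag is read as a result. Cdkn1b, which encodes p27, had a gap of 0.503 because of tumour 05 (54.7 CPM, next 33.5 CPM). Vegfa had 0.583, again from tumour 05. Igf2 had 0.606 from tumour 09. Bst2, an interferon-induced protein that tethers viruses, had 0.498 from the low level of 102 CPM in tumour 07. Esam, an endothelial adhesion molecule, had 0.572 from 9.14 CPM in tumour 13, against 43.2 CPM or more elsewhere. Cdkn2a had 0.468 from tumour 07. Cdk1, a gene of the score, had 0.498 from tumour 08. The list of MYC and ribosome biogenesis genes had 0.542 from the high level of tumour 06.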

How the results depend on the processing

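The counts of genes called stayed at 0 on both sides under 24 of the 26 alternatives, and without any 1 tumour they ranged from 0 to 0, with smallest adjusted p-values between 0.083 and 0.73. Not all of these could differ, since 3 other scores (with TMM factors, without Mki67, without Ccnb1) left the sets as they were, the scores without Top2a and without Cdk1 gave the same sets as each other, and a minimum fold change cannot add calls to 0. DESeq2 called 25 higher and 25 lower. The top 3 against the bottom 3 tumours gave 1 lower gene, an identifier without a symbol, and 0 higher. The cause was not tested. Medians of the replication, mitosis, repair, periportal and ribosomal protein lists kept their sign under all 26 alternatives each, and 18 of 29 lists changed sign under at least 1, as did 34 of 78 named genes. The gap of 0.04 at the division, the sharing of tags and the depth of the libraries limit the comparison. No paired analysis was possible because the replicate numbers of the labels pair no tumours within the 1 labelled group used. The tags do join tumours of both sets, and the fit with the tag as a term, added after the data had been seen, called 0 genes on both sides.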

Other observations

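Egfr, the receptor of epidermal growth factor, fell outside the rule and is named after its values were seen. It stood at 113, 223, 172, 249.6 and 375 CPM in tumours 08, 13, 09, 12 and 06, against 66.0, 122, 71.3, 54.5 and 35.9 CPM in tumours 10, 11, 05, 04 and 07. The only overlap was tumour 11 above tumour 08, and the fitted log2 difference was 1.66 ± 0.37 (SE).

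With the score used as a number in place of 2 sets, the genes with the smallest p-values were Iqgap3 and Diaph3, a scaffold and a formin of the dividing cell cortex. Their scaled slopes were 0.76 ± 0.11 and 1.70 ± 0.24 (log2, SE), and both had an adjusted p of 0.12 in edgeR. Hmmr, Kntc1, Nek2, Tpx2 and Bub1 were among the next 6, as was Rps24-ps2 with a slope of −0.70, and Rpl17 at −0.91 was among the first 15. The score is itself made of genes of G2 and mitosis, so this order is a description.

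Usp18, the protease that removes ISG15 and damps interferon signalling, was lower in the higher-scoring tumours by 0.58 ± 0.22 (log2, SE), while 10 of the 12 interferon genes fitted were above 0, with a median of 0.18 that ranged from −0.34 with the score as a number to 0.39 without tumour 05 and changed sign under 5 alternatives. Antigen presentation genes had a median of 0.09, which ranged from −0.11 without tumour 05 to 0.46 without tumour 11.

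Genes of fat metabolism had medians of −0.03 for lipogenesis and sterol synthesis (6 of 18 above 0) and −0.08 for fatty acid oxidation (5 of 15). Medians were −0.07 for fibroblast, −0.05 for macrophage and −0.06 for lymphocyte genes, and all 3 turned with single tumours. Without tumour 09 the fibroblast and lymphocyte medians were −0.82 and −0.52, without tumour 07 the 3 were 0.30, 0.16 and 0.39, and without tumour 06 the macrophage median was −0.30. Of 59 histone genes of S phase, most of whose mRNAs lack a poly(A) tail, 9 were fitted, and 6 of these were above 0 with a median of 0.50, which was −0.01 without tumour 06.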
